A study of Mus musculus with 16 samples.

Results

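Arginine and polyamine metabolism was followed through 10 genes, taken as a fixed list of symbols: Arg1, Arg2, Ass1, Nos2, Odc1, Srm, Sms, Sat1, Azin1 and Amd1. Of the 10 genes, 7 had a probe set annotated to that gene alone, 2 (Ass1 and Sms) were read only by probe sets that also carry the symbol of a transcribed pseudogene, and Amd1 was not analysed here. The list corresponds to 12 of 30177 probe sets, and 6 of the 7 singly annotated genes entered the tests, among 11634 genes tested of 19938 with a probe set of their own. Nos2, which never rose above the array median, was left out of the tests.

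The series hybridised total RNA of tissue-resident macrophages of male C57BL/6 mice to 16 Affymetrix arrays, and it asks what the loss of the transcriptional repressor Bhlhe40 changes in them. Large peritoneal macrophages (LPM), which make up most macrophages of the unstimulated peritoneum, were lavaged on day 4 from mice given IL-4c on days 0 and 2. Among these were 2 arrays labelled Bhlhe40LysM (LysM-Cre+ Bhlhe40fl/fl, in which the Lyz2 promoter drives Cre in myeloid cells), 2 arrays of Bhlhe40-/- mice (KO, Bhlhe40 deleted in all cells) and 2 of Bhlhe40+/+ mice (WT). Naive LPM from untreated mice gave 3 KO and 3 WT arrays, and alveolar macrophages (AM), which patrol the airspaces of the lung, gave 2 KO and 2 WT arrays from lung digests of untreated mice. Ages, and whether an array holds 1 mouse or a pool, are not stated, so p-values measure only the spread between these arrays. Values are log2 signals, and array medians lay between 4.79 and 4.93, so a signal near or below that range says little about whether the transcript was present.

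Arginine enters macrophages through cationic amino acid transporters and is then split between competing enzymes. Arginase hydrolyses it to urea and ornithine, nitric oxide synthase converts it to nitric oxide and citrulline, and argininosuccinate synthase (Ass1) with argininosuccinate lyase (Asl) rebuilds arginine from citrulline. Ornithine decarboxylase (Odc1) turns ornithine into putrescine, and spermidine synthase (Srm) and spermine synthase (Sms) extend it with aminopropyl groups supplied by S-adenosylmethionine decarboxylase (Amd1). The acetyltransferase Sat1 starts the breakdown and export of spermidine and spermine, and Azin1, a catalytically inactive relative of ornithine decarboxylase, protects that enzyme from antizyme. IL-4 is a classical inducer of Arg1 in mouse macrophages, whereas bacterial products and interferon gamma induce Nos2.

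The label checks came out as follows. Bhlhe40 was lower in KO than in WT in every cell set, with log2 differences of -1.89 in naive LPM and -2.17 in AM, and it read 7.90 to 8.01 in IL-4c KO LPM against 8.77 to 8.99 in IL-4c WT LPM. On the 2 arrays labelled Bhlhe40LysM it read 8.75 to 8.83, and the sources used here do not say whether the probes lie in the deleted part, so that this signal neither checks nor contradicts the label. Of 7 measured LPM markers all 7 lay above the array median in each LPM group, and of 7 measured AM markers all 7 did so in AM, where array means were 10.52 to 10.65 in KO and 10.31 to 10.38 in WT. The IL-4c-induced chitinase-like gene Chil3 read 12.37 to 12.55 on the IL-4c LPM arrays and 3.81 to 7.20 on the naive LPM arrays. In naive LPM, Chil3 was itself lower in KO than in WT (-1.76, limma adjusted p = 0.0210). Retnla, the other gene read for the IL-4c label, separated the arrays less clearly. It read 11.81 to 12.09 on the IL-4c LPM arrays and already 10.83 to 11.77 on the naive ones. Its rise was 0.70 in WT (limma adjusted p = 0.0164) and 0.36 in KO (adjusted p = 0.200), where it was not called. Replicate arrays correlated at 0.989 to 0.995. Because arrays read pooled RNA of many cells, fewer cells of a type and less RNA per cell cannot be told apart.

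Promoter sequence was examined for the E-box CACGTG, which Bhlhe40 and Myc-Max can bind, for the STAT6-type palindrome (TTC and GAA set 4 bases apart) and for the C/EBP-ATF element TTGCATCA, on both strands and with no overlap between the matches found. RefSeq windows (GRCm38.p6, 250 bases before to 50 after the start) were at hand for 5 of the 10 genes: Amd1, Ass1, Odc1, Sat1 and Sms. CACGTG lay in the window of Ass1, 36 bases before the start, and in 1 of the 2 windows of Sms, 196 bases before it, and 7.15% of all 32851 windows of this length hold it. The palindrome and TTGCATCA, held by 6.95% and 0.895% of all windows, matched in 0 of these 5 genes. The 250 bases before the start are shown for Ass1 and Sms because their windows hold CACGTG (capitals), and for Sat1 because it was called between genotypes under IL-4c. Of the probe sets shared with pseudogenes, those of Ass1 were called lower in KO than in WT under IL-4c and those of Sms were not called. The sequences shown lie at chr2:31470020-31470269 (plus strand) for Ass1, chrX:157492288-157492537 (minus strand) for Sms and chrX:155216450-155216699 (minus strand) for Sat1. A match is a description of the letters and not a demonstration of binding.
Ass1: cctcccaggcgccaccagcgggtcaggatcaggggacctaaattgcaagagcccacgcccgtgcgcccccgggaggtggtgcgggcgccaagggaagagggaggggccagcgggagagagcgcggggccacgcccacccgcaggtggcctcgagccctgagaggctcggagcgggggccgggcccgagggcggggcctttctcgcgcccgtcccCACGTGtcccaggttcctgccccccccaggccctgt
Sms: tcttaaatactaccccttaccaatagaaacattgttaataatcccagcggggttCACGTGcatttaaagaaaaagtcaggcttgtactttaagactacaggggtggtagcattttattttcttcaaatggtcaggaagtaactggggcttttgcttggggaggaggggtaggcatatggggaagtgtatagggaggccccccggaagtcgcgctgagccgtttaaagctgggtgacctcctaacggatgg
Sat1: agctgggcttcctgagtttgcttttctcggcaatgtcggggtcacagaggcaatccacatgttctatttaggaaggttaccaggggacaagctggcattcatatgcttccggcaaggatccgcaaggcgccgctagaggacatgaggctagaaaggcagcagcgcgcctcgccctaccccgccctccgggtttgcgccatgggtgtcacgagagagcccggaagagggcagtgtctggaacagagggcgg

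**Figure D1:**
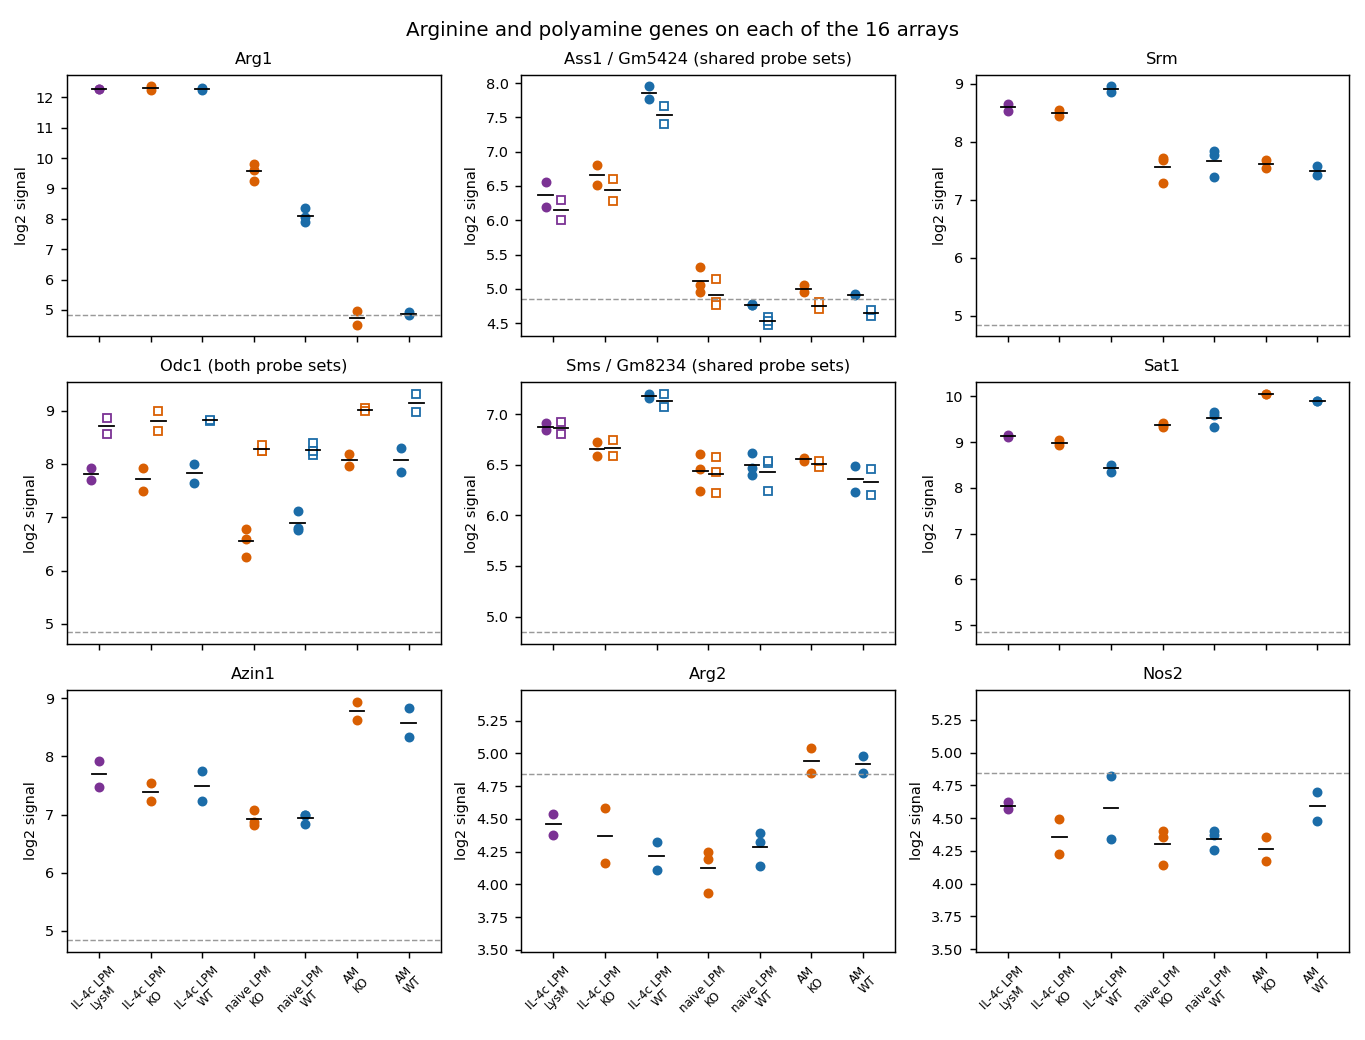
Log2 signal (vertical axes, scaled per panel) of the listed genes on each of the 16 arrays, by group (horizontal axis: IL-4c LPM labelled LysM, KO and WT, naive LPM KO and WT, AM KO and WT). Points are arrays, short lines group means and the dashed line the typical array median; where a panel holds 2 probe sets, filled circles show 10363541 (Ass1/Gm5424), 10394770 (Odc1) or 10604844 (Sms/Gm8234) and open squares 10471154, 10582295 or 10607524. Arg1 climbs from AM through naive WT and naive KO LPM to a common level near 12.3 under IL-4c, while the Ass1/Gm5424 probe sets are highest in IL-4c WT LPM alone.

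Arginase 1, the cytosolic arginase, showed the widest range of the listed genes, 7.55 log2 units between group means. The Arg1 probe set (Entrez 11846, chromosome 10, 24915207 to 24927470, GRCm38.p6) read 12.28 and 12.28 on the arrays labelled Bhlhe40LysM, 12.36 and 12.24 in IL-4c KO LPM and 12.25 and 12.30 in IL-4c WT LPM. It read 9.61, 9.26 and 9.81 in naive KO LPM and 8.36, 8.05 and 7.91 in naive WT LPM, and 4.98 and 4.52 in KO AM and 4.92 and 4.83 in WT AM. All naive KO LPM arrays therefore lay above all naive WT LPM arrays, whereas the 3 IL-4c groups overlapped near the top of the scale, where array maxima were 13.67 to 13.84. AM signals lay at the array medians.

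In naive LPM Arg1 was 2.74-fold higher in KO than in WT (log2 difference 1.46 ± 0.16 SE, limma adjusted p = 0.000107), and it was the only one called of the 6 listed genes tested, against 1.88% of all genes called. Under IL-4c no such difference was detectable: KO and WT differed by 0.03 (95% interval -0.38 to 0.43, adjusted p = 0.969), and the arrays labelled Bhlhe40LysM and WT differed by 0.01 (-0.39 to 0.41, adjusted p = 0.985). The IL-4c response was smaller in KO, at 6.68-fold (2.74 ± 0.17, adjusted p = 2.88e-08), than in WT, at 18.0-fold (4.17 ± 0.17, adjusted p = 1.60e-10). The test of that difference gave -1.43 ± 0.25 (adjusted p = 0.0131, 1 of the 6 listed genes against 0.550% of all genes), and without IL-4c WT replicate 2 it gave -1.41 with an adjusted p of 0.0711. Between KO and WT AM the difference was -0.13 (-0.53 to 0.28, adjusted p = 0.964), with both groups at the array medians.

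The interaction of genotype with cell type was 1.58 ± 0.25 for Arg1 (limma adjusted p = 0.00887, the only listed gene, against 0.249% of all genes). Since Arg1 in AM read 4.52 to 4.98, at the array medians, a lower level in either genotype could not show there, and this value restates the naive LPM difference against background rather than comparing the cell types. That call was lost without AM WT replicate 1 (1.53, adjusted p = 0.0671) and without AM KO replicate 2 (1.35, adjusted p = 0.0897). Of the markers of other cells tested in naive LPM, none of those for monocytes, B cells or neutrophils was called higher in KO. Of 7 tested AM markers 1 was called higher and 1 lower in KO. The list that joins monocytes, dendritic cells and small peritoneal macrophages averaged 5.54 to 5.73 in KO against 5.73 to 6.00 in WT, with 1 of 4 tested markers lower, and the B-cell list averaged 4.46 to 5.04 in KO against 4.63 to 4.84 in WT. The neutrophil list averaged 4.17 to 4.22 in KO against 4.19 to 4.23 in WT, below the array medians. The part of other cells in the Arg1 difference was not tested.

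The genes whose group means followed Arg1 most closely were Abhd11 (Pearson r = 0.997), Mboat1 (0.996) and Acot8 (0.994), among 4221 other genes with a range of at least 1 log2 unit. The correlations run over 7 group means, and all genes were read on the same arrays. For Azin1 the closest genes were Ermp1 (0.998), Ift122 (0.997) and Ppp2ca (0.996), and for Sat1 Itpr2 (0.998), Ppt1 (0.996) and Cebpa (0.994).

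Arg2, the mitochondrial arginase (Entrez 11847, chromosome 12), stayed close to background throughout. It read 4.38 and 4.54 on the arrays labelled Bhlhe40LysM, 4.58 and 4.16 in IL-4c KO LPM and 4.32 and 4.11 in IL-4c WT LPM, 3.93 to 4.25 in naive KO LPM and 4.14 to 4.39 in naive WT LPM. AM gave 4.85 and 5.04 in KO and 4.85 and 4.98 in WT. Arg2 was above the array median on 3 arrays, all of them AM, and it entered the tests through them, so its lower value in LPM than in AM (-0.82 in KO, -0.64 in WT) is a description. The IL-4c response was 0.25 (95% interval -0.07 to 0.57) in KO and -0.06 (-0.39 to 0.26) in WT.

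Inducible nitric oxide synthase, Nos2 (Entrez 18126, chromosome 11), read 4.57 and 4.62 on the arrays labelled Bhlhe40LysM, 4.23 and 4.49 in IL-4c KO LPM, 4.82 and 4.34 in IL-4c WT LPM, 4.14 to 4.40 in naive KO LPM and 4.26 to 4.40 in naive WT LPM. AM gave 4.36 and 4.17 in KO and 4.70 and 4.48 in WT. It was above the array median on 0 of 16 arrays, and no difference in it was measurable.

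Argininosuccinate synthase was represented by probe sets 10363541 and 10471154, each annotated both to Ass1 (Entrez 11898, chromosome 2, 31470270 to 31520670) and to the transcribed pseudogene Gm5424 (Entrez 432466, chromosome 10, 62071022 to 62072571). Their values belong to the pair and cannot be assigned to either gene. Probe set 10363541 read 6.19 and 6.56 on the arrays labelled Bhlhe40LysM, 6.81 and 6.52 in IL-4c KO LPM and 7.77 and 7.95 in IL-4c WT LPM. In naive LPM it read 5.32, 5.06 and 4.95 in KO and 4.78, 4.76 and 4.77 in WT, and in AM 4.96 and 5.05 in KO and 4.91 and 4.92 in WT. Every IL-4c array lay above every naive array, and both IL-4c WT arrays lay above all 4 IL-4c arrays of KO and of the label Bhlhe40LysM.

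These probe sets were fitted at the level of single probe sets (13677 tested), a fit added after their values had been seen. Under IL-4c, 10363541 was 2.79-fold lower on the arrays labelled Bhlhe40LysM than in WT (-1.48 ± 0.15, limma adjusted p = 8.62e-05) and 2.29-fold lower in KO than in WT (-1.19 ± 0.15, adjusted p = 0.000678). Of all probe sets 8.18% were called in the first of these comparisons and 2.90% in the second, and both comparisons share the 2 WT arrays. Probe set 10471154 gave -1.39 (adjusted p = 0.000227) and -1.09 (adjusted p = 0.00178), though the last call was lost when only the 4 arrays compared were fitted (adjusted p = 0.0649). The arrays labelled Bhlhe40LysM differed from KO by -0.29 in either probe set (95% interval -0.62 to 0.04 for 10363541).

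The IL-4c response of the Ass1/Gm5424 probe sets was 2.94-fold in KO (1.56 ± 0.14, limma adjusted p = 3.29e-06) and 8.51-fold in WT (3.09 ± 0.14, adjusted p = 3.89e-09) for 10363541, and 1.53 in KO and 3.00 in WT for 10471154, against 37.5% and 42.0% of probe sets called. Naive WT signals were under the array medians on all 3 arrays, and background therefore bounds how large the WT response can read. The genotype by IL-4c interaction was -1.53 ± 0.20 (adjusted p = 0.00534) and -1.47 ± 0.20 (adjusted p = 0.00606), against 0.431% of probe sets called, and the second lost its call without IL-4c WT replicate 2 (-1.34, adjusted p = 0.0519). Probe set 10471154 entered the tests only through IL-4c arrays, so its IL-4c response and interaction are descriptions. Arg1 and the Ass1/Gm5424 probe sets thus both had a smaller IL-4c response in KO, but on different sides of it: for Arg1 the naive KO arrays were higher and the treated ones overlapped with WT, and for Ass1/Gm5424 the treated KO arrays were lower. In naive LPM the Ass1/Gm5424 difference of KO from WT was 0.34 and 0.38, with adjusted p of 0.190 and 0.163.

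**Figure D2:**
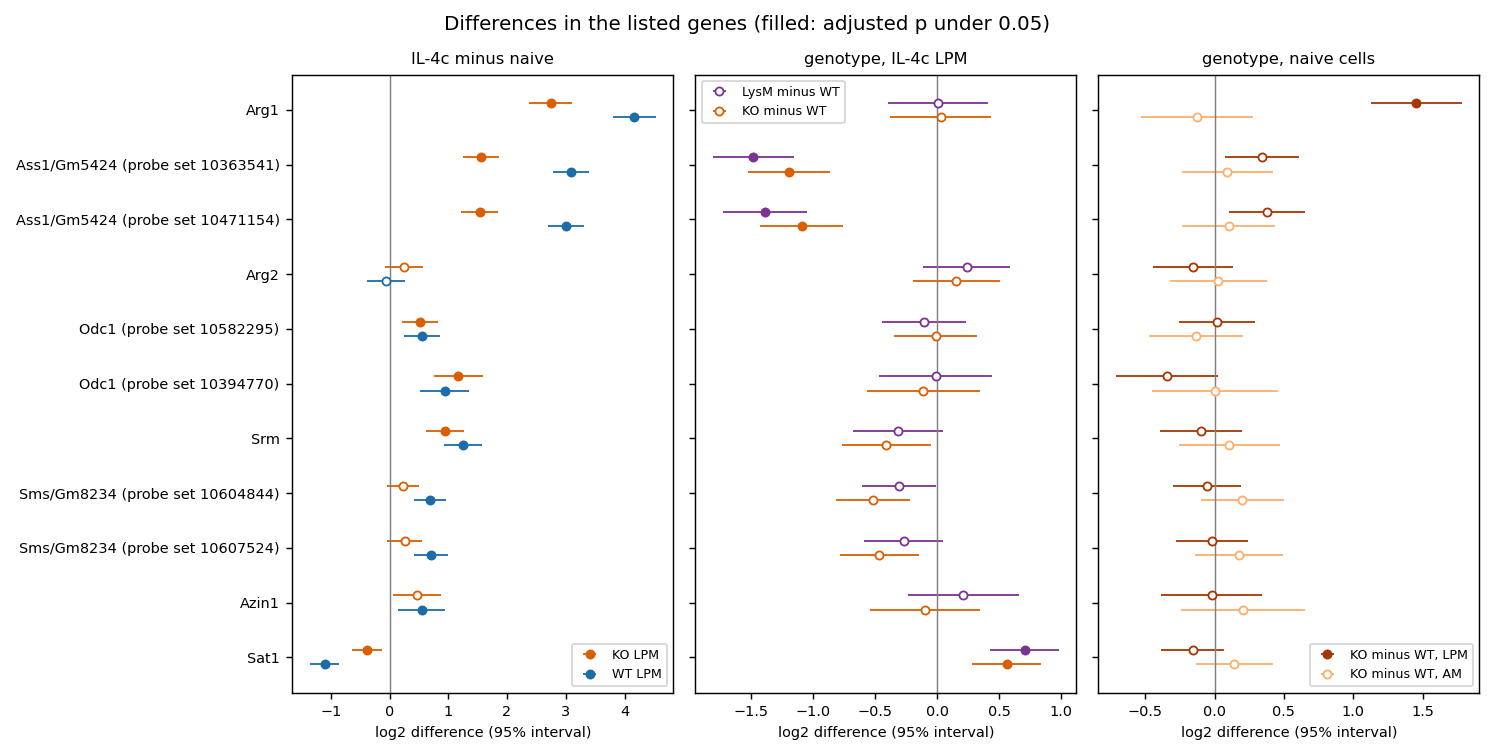
Log2 differences of the listed genes (horizontal axes, with 95% intervals from limma) for IL-4c minus naive in KO and WT LPM, for the arrays labelled LysM minus WT and KO minus WT in IL-4c LPM, and for KO minus WT in naive LPM and AM; filled points have an adjusted p under 0.05. Under IL-4c the Ass1/Gm5424 probe sets lie near -1.19 and -1.48 and Sat1 at 0.56 and 0.71, whereas Arg1 differs by genotype only in naive LPM, at 1.46.

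Ornithine decarboxylase rose with IL-4c in both genotypes. The Odc1 probe set with the higher signal, 10582295 (Entrez 18263, chromosome 12, 17544808 to 17551502), read 8.86 and 8.56 on the arrays labelled Bhlhe40LysM, 8.99 and 8.61 in IL-4c KO LPM and 8.81 and 8.82 in IL-4c WT LPM. It read 8.24, 8.25 and 8.36 in naive KO LPM and 8.39, 8.16 and 8.24 in naive WT LPM. AM gave 9.04 and 8.99 in KO and 9.31 and 8.98 in WT, above all naive LPM arrays and overlapping with IL-4c KO LPM.

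The rise was 0.52 ± 0.15 in KO (limma adjusted p = 0.0102) and 0.55 ± 0.15 in WT (adjusted p = 0.00627), and the KO call was lost without IL-4c KO replicate 1 (0.33, adjusted p = 0.174). The other Odc1 probe set, 10394770, showed a larger rise, 1.17 in KO (adjusted p = 0.000387) and 0.94 in WT (adjusted p = 0.00146). The genotype by IL-4c interaction was called for neither probe set, at -0.03 (95% interval -0.47 to 0.41) for 10582295 and 0.23 (-0.35 to 0.82) for 10394770. KO minus WT was also not called. In naive LPM it was 0.02 for 10582295 and -0.34 (-0.71 to 0.03, limma adjusted p = 0.346) for 10394770. In IL-4c LPM it was -0.01 and -0.11.

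Spermidine synthase was also higher after IL-4c in both genotypes. Srm (Entrez 20810, chromosome 4, 148591513 to 148594619) read 8.65 and 8.53 on the arrays labelled Bhlhe40LysM, 8.44 and 8.55 in IL-4c KO LPM and 8.95 and 8.86 in IL-4c WT LPM, against 7.68, 7.28 and 7.71 in naive KO LPM and 7.83, 7.39 and 7.76 in naive WT LPM. It rose 1.92-fold in KO (0.94 ± 0.16, limma adjusted p = 0.000248) and 2.38-fold in WT (1.25 ± 0.16, adjusted p = 1.25e-05). The IL-4c arrays of KO and of the label Bhlhe40LysM all lay below both WT arrays, but the differences, -0.41 (95% interval -0.77 to -0.05, adjusted p = 0.228) and -0.31 (-0.68 to 0.05, adjusted p = 0.300), did not pass the threshold. The share of all probe sets whose arrays split this way is not given here, so the split is a description. AM gave 7.54 and 7.68 in KO and 7.58 and 7.42 in WT, and naive LPM minus AM was -0.05 in KO and 0.15 in WT, neither called.

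Spermine synthase shared its probe sets, 10604844 and 10607524, with the transcribed pseudogene Gm8234, so that these values too belong to a pair of genes. Probe set 10604844 read 6.91 and 6.84 on the arrays labelled Bhlhe40LysM, 6.73 and 6.59 in IL-4c KO LPM and 7.16 and 7.20 in IL-4c WT LPM, against 6.24 to 6.61 in naive KO LPM and 6.40 to 6.62 in naive WT LPM. The response was 0.23 in KO (95% interval -0.05 to 0.50, adjusted p = 0.179) and 0.69 ± 0.13 in WT (limma adjusted p = 0.000616), and the difference between the responses was -0.46 (adjusted p = 0.279), so it was not shown that they differ. Under IL-4c all 4 arrays of KO and of the label Bhlhe40LysM lay below both WT arrays, with differences of -0.31 for the label Bhlhe40LysM (adjusted p = 0.207) and -0.52 for KO (adjusted p = 0.0611), short of the threshold. As for Srm, this split is a description, without the share over all probe sets. The KO difference was called without naive KO replicate 2 (adjusted p = 0.0487) or 3 (adjusted p = 0.0471). Probe set 10607524 gave 0.25 and 0.70 for the responses in KO and WT.

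Azin1 (Entrez 54375, chromosome 15, 38487430 to 38519294) separated the tissues. It read 8.63 and 8.94 in KO AM and 8.33 and 8.83 in WT AM, against 6.82 to 7.07 in naive KO LPM and 6.84 to 7.0 in naive WT LPM, 3.63-fold lower in LPM than in AM in KO (-1.86 ± 0.19, limma adjusted p = 6.56e-07) and 3.11-fold lower in WT (-1.64 ± 0.19, adjusted p = 3.03e-06). IL-4c LPM lay between, at 7.92 and 7.48 on the arrays labelled Bhlhe40LysM, 7.55 and 7.23 in KO and 7.23 and 7.75 in WT. The IL-4c response was 0.47 in KO (95% interval 0.06 to 0.87, adjusted p = 0.0674) and 0.54 ± 0.19 in WT (adjusted p = 0.0321). The WT call did not survive leaving out any naive WT array (lowest value 0.49, adjusted p up to 0.0882) or IL-4c WT replicate 2 (0.28, adjusted p = 0.374), nor a replicate block (0.55, adjusted p = 0.0510).

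Sat1 (Entrez 20229, chromosome X, 155213126 to 155216449) moved against Odc1 and Srm in the IL-4c response, though not between LPM and AM. It read 9.11 and 9.15 on the arrays labelled Bhlhe40LysM, 9.04 and 8.93 in IL-4c KO LPM and 8.5 and 8.35 in IL-4c WT LPM. Naive LPM gave 9.41, 9.37 and 9.34 in KO and 9.60, 9.66 and 9.34 in WT, and AM gave 10.05 and 10.05 in KO and 9.91 and 9.90 in WT. The IL-4c WT arrays were the lowest of all 16, and they overlapped with no other group.

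After IL-4c, Sat1 was 1.31-fold lower in KO (-0.39 ± 0.12, limma adjusted p = 0.0180), a call lost without IL-4c KO replicate 2 (-0.33, adjusted p = 0.116), and 2.16-fold lower in WT (-1.11 ± 0.12, adjusted p = 3.20e-06). Under IL-4c it was 1.63-fold higher on the arrays labelled Bhlhe40LysM than in WT (0.71 ± 0.13, adjusted p = 0.00389) and 1.48-fold higher in KO than in WT (0.56 ± 0.13, adjusted p = 0.0255). Sat1 was the only one called of the 6 listed genes in each of these comparisons, against 8.67% and 3.63% of all genes. Both calls lean on single arrays: without IL-4c WT replicate 2 the adjusted p was 0.0616 for the label Bhlhe40LysM (0.63) and 0.246 for KO (0.48), and for KO it was 0.174 without KO replicate 1 (0.51) and 0.0505 without KO replicate 2 (0.62). With only the 4 arrays compared the adjusted p was 0.0757 and 0.147. The genotype by IL-4c interaction, 0.72 ± 0.17, had an adjusted p of 0.0685, and 0.0475 without naive WT replicate 3 (0.82).

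Counted together, IL-4c changed 4 of the 6 listed genes tested in KO, raising Arg1, Odc1 and Srm and lowering Sat1, and 5 of 6 in WT, where Azin1 rose as well. Over all genes 37.3% were called in KO and 41.2% in WT, so calls of this kind were frequent on these arrays. The median response of the listed genes was 0.495 in KO and 0.548 in WT, beside 0.038 and 0.021 over all genes tested. Markers of B cells, which share the peritoneal cavity, fell in parallel: 4 of 5 tested markers were lower after IL-4c in each genotype, and the list of 7 averaged 4.05 to 4.15 after IL-4c against 4.46 to 5.04 naive in KO, and 3.98 to 4.06 against 4.63 to 4.84 in WT. General macrophage markers were lower too, 4 of 5 tested in each genotype with 1 higher, and LPM markers, 3 of 7 in KO and 4 of 7 in WT. Of 4 tested markers of monocytes, dendritic cells and small peritoneal macrophages, 2 were higher and 1 lower in KO, and 1 was higher and 1 lower in WT. The part of these shifts in the listed genes was not tested.

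Between naive LPM and AM, 5 of the 6 listed genes tested differed in KO and 5 in WT, against 40.0% and 38.3% of all genes. Both counts include Arg2, which entered the tests only through AM arrays, where it was highest, so its call is a description. Arg1 was 28.1-fold higher in LPM than in AM in KO and 9.38-fold higher in WT, sizes that are limited by AM values at background. Odc1 (-0.73 in KO, -0.88 in WT), Azin1, Sat1 (-0.67 in KO, -0.37 in WT) and Arg2 were lower in LPM. The Sat1 call in WT was lost without naive WT LPM replicate 3 (-0.27, adjusted p = 0.0990) or without either AM WT array (-0.36 and -0.38, adjusted p = 0.0818 and 0.0690), with only the 5 arrays compared (-0.37, adjusted p = 0.0548), and with a replicate block (-0.31, adjusted p = 0.0633). The 4 epithelial markers were all lower in LPM than in AM, with array means of 3.46 to 3.63 in naive LPM against 6.43 to 6.88 in AM for KO, and of 3.34 to 3.66 against 6.02 to 7.04 for WT. Of 5 tested B-cell markers 3 were higher in LPM than in AM in each genotype. Their part in these differences was not tested.

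In KO against WT AM 0 of the 6 listed genes were called by limma (0 at an unadjusted p under 0.05), beside 0.120% of all genes. Their differences ran from -0.13 for Odc1 and Arg1 to 0.20 for Azin1. The arrays labelled Bhlhe40LysM against KO also gave 0 of 6 (0 at an unadjusted p under 0.05), with 0.0172% of all genes called. Among IL-4c LPM the listed genes differed between these groups by -0.09 for Odc1 to 0.31 for Azin1 (95% interval -0.13 to 0.76).

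Around the listed genes, 60 further genes of the same and adjoining pathways were read in 10 lists, and 40 of them were tested. IL-4c raised 18 and lowered 2 of the 40 in KO and raised 16 and lowered 5 in WT, with medians of 0.436 and 0.350. Over all genes tested 21.9% rose and 15.4% fell in KO, and 22.0% rose and 19.2% fell in WT. The raised genes include Gatm, Dohh and Aldh4a1 and, in KO, Azin2. These entered the tests only through IL-4c arrays, so their calls are descriptions.

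Arginine transport was among the lists that moved up. Of 6 tested transporters 3 rose and 0 fell in KO, and 3 rose and 1 fell in WT. Slc7a2, an inducible cationic amino acid transporter of macrophages, read 11.52 to 11.62 in IL-4c KO LPM and 11.34 to 11.41 in IL-4c WT LPM, against 8.27 to 8.53 in naive KO LPM and 8.15 to 8.33 in naive WT LPM. Its rise was 3.13 ± 0.13 in KO (limma adjusted p = 2.33e-10) and 3.15 ± 0.13 in WT (adjusted p = 1.40e-10). Slc7a1, the constitutive transporter, rose by 0.59 in KO and 0.84 in WT, Slc7a7, the light chain of an arginine exporter, by 1.21 and 0.66, and the lysosomal arginine sensor Slc38a9 fell by 0.44 in WT.

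Of 5 tested genes of ornithine and proline metabolism, 4 rose in each genotype. They were Oat, ornithine aminotransferase (0.93 in KO, 0.61 in WT), Aldh18a1, pyrroline-5-carboxylate synthase (0.89 and 1.06), Pycrl, a pyrroline-5-carboxylate reductase (1.08 and 1.12), and Aldh4a1, which oxidises the same intermediate (0.70 and 0.62, with naive values of 4.42 to 4.80 at or below the array medians). Aldh4a1 entered the tests only through IL-4c arrays, so its rise is a description. For creatine synthesis Gatm, which transfers the amidino group of arginine to glycine, read higher after IL-4c by 4.29 ± 0.29 in KO and 4.77 ± 0.29 in WT. Its naive values were 3.35 to 4.02, below the array medians. Gatm entered the tests only through IL-4c arrays, so its rise is a description. Ckb, the brain-type creatine kinase, rose by 1.01 in KO.

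Among the genes of eIF5A hypusination, the modification for which spermidine is the donor, 3 of 4 rose in KO and 2 of 4 in WT. Dohh, deoxyhypusine hydroxylase, rose by 1.11 in KO and 0.95 in WT, with naive values of 3.80 to 4.44 below the array medians, Eif5a by 0.77 and 0.75, and Dhps, deoxyhypusine synthase, by 0.56 in KO. Dohh, counted in both genotypes, entered the tests only through IL-4c arrays, so its rise is a description. Of 4 tested genes of polyamine breakdown and transport, 0 rose and 2 fell in each genotype: Sat1 in both, the transporter gene Atp13a3 by 0.43 in KO and Smox, spermine oxidase, by 0.55 in WT, where IL-4c arrays read 4.5 to 4.57, below the array medians. For the tetrahydrobiopterin cofactor of nitric oxide synthase the members went both ways, with Qdpr (1.0 in KO, 1.23 in WT) and Spr (0.59 and 0.92) higher, Pts lower (-0.58 and -0.48), and Gch1, the first enzyme of its synthesis, lower in WT (-0.83).

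Of 8 tested genes of S-adenosylmethionine supply and methionine salvage, which feed and recycle the aminopropyl donor, 2 rose and 0 fell in KO and 3 rose and 1 fell in WT. Mtrr, methionine synthase reductase, rose by 0.52 in KO and 0.85 in WT, the salvage enzyme Apip by 0.64 in KO, and the salvage genes Mtap and Adi1 by 0.77 and 0.51 in WT, where Mat2b, a regulatory subunit of methionine adenosyltransferase, fell by 0.37. Azin2 rose by 0.80 in KO, and Asl, the enzyme that follows argininosuccinate synthase, by 0.53 in KO. Azin2 entered the tests only through IL-4c arrays, so its rise is a description.

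**Figure D3:**
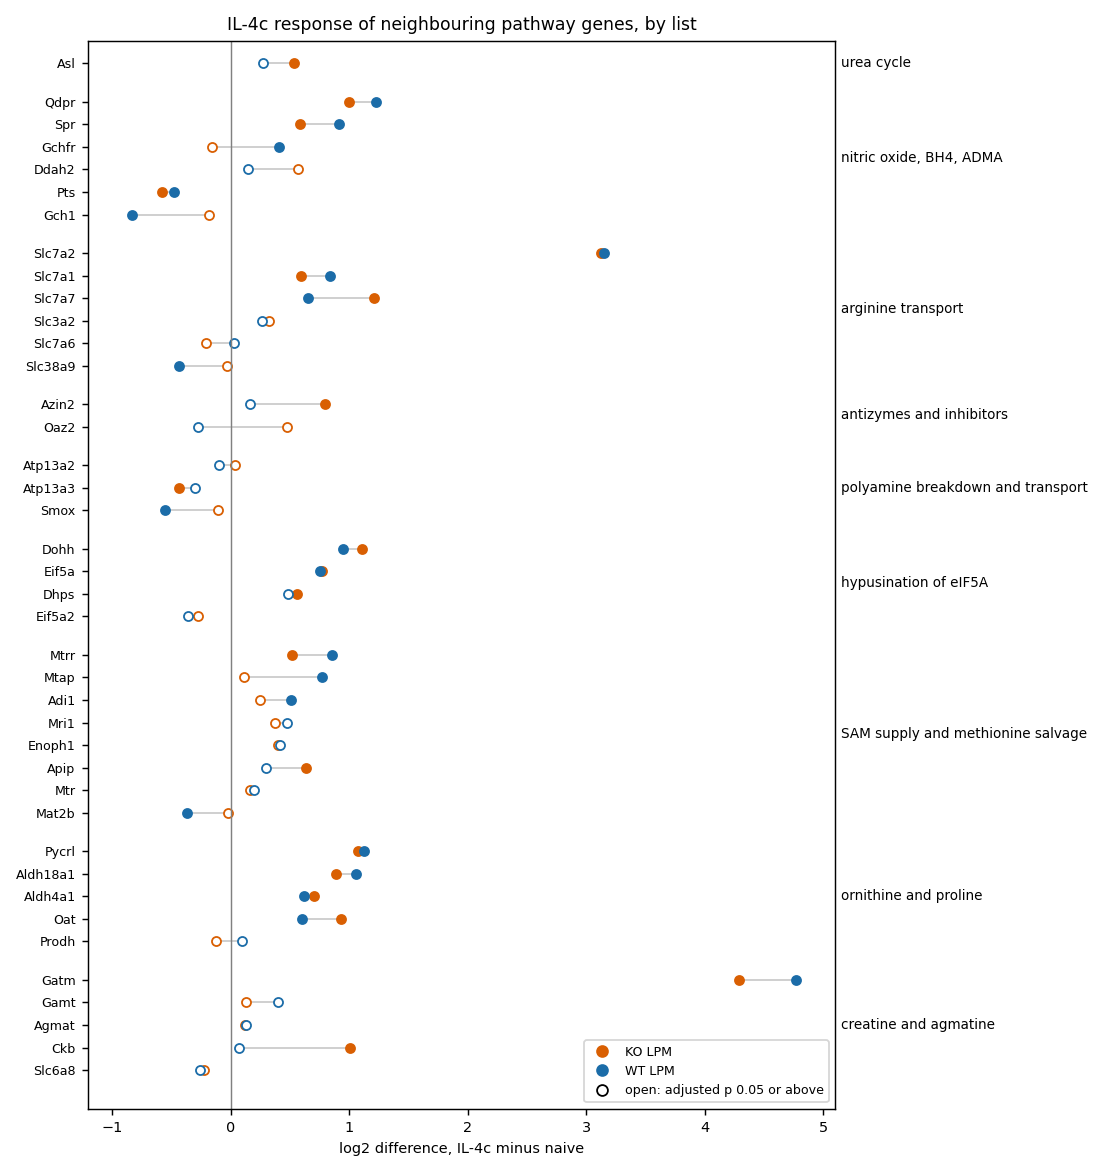
Log2 difference of IL-4c over naive LPM (horizontal axis) for the 40 tested genes of adjoining pathways, grouped by list, in KO and WT; filled points have an adjusted p under 0.05 and grey lines join the genotypes. Gatm (4.29 in KO, 4.77 in WT) and Slc7a2 (3.13 and 3.15) stand furthest to the right. Gatm, Dohh, Aldh4a1 and Azin2 entered the tests only through IL-4c arrays.

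By genotype under IL-4c the 40 genes gave different counts in the 2 comparisons, which share the WT arrays. On the arrays labelled Bhlhe40LysM 7 were higher and 0 lower than in WT, against 4.80% of all genes higher and 3.87% lower, and in KO 2 were called, 1 higher and 1 lower, against 3.63% of all genes. The 7 were Slc6a8, the creatine transporter (0.86), Ckb (0.81), Gch1 (0.78), Eif5a2, the second eIF5A isoform (0.77), Azin2, an antizyme inhibitor (0.68), Smox (0.65) and Atp13a2, a lysosomal polyamine exporter (0.61). With Sat1, 3 of the 4 tested genes of polyamine breakdown and transport were higher on these arrays. These calls rest on few arrays: of the 7, 0 remained without IL-4c WT replicate 2, 2 without IL-4c WT replicate 1, and 2 and 3 without the Bhlhe40LysM replicates 1 and 2. Slc6a8 read 5.85 and 4.86 on the arrays labelled Bhlhe40LysM against 4.45 to 4.53 in WT, and its difference was 0.36 (adjusted p = 0.358) without replicate 1 and 1.36 without replicate 2. WT signals of Slc6a8, Smox and Eif5a2 (4.32 to 4.52) lay below the array medians, and those of Azin2 (4.74 and 5.02) lay around them. In KO, Ckb was higher (1.0 ± 0.23, limma adjusted p = 0.0235) and Mtap, which salvages the methylthioadenosine that polyamine synthesis releases, was lower (-0.62 ± 0.14, adjusted p = 0.0257), at 6.07 to 6.19 in KO against 6.60 to 6.90 in WT. Both calls were lost without IL-4c WT replicate 2 (0.94 and -0.47, adjusted p = 0.198 and 0.293) and without IL-4c KO replicate 1 (0.77 and -0.68), that of Ckb also without IL-4c WT replicate 1 (1.06, adjusted p = 0.0663), and that of Mtap also without IL-4c KO replicate 2 (-0.56, adjusted p = 0.108).

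In naive LPM and in AM, 0 of the 40 genes were called between KO and WT, and 0 had a called interaction of genotype with IL-4c or with cell type. Over all genes tested 1.88% were called in naive LPM and 0.120% in AM, and 0.550% and 0.249% for these interactions. Calls of these kinds were thus rare on these arrays. Between naive LPM and AM, 3 of the 40 were higher and 14 lower in KO, and 8 were higher and 10 lower in WT. Over all genes tested 17.3% were higher and 22.8% lower in KO, and 21.2% and 17.1% in WT. The arginine transport list was lower in LPM, 4 of 6 tested in KO and 3 of 6 in WT. Slc3a2, the heavy chain that pairs with light chains such as Slc7a6 and Slc7a7, differed by -2.17 in both genotypes, and Slc7a2 by -1.48 in KO and -1.25 in WT. Atp13a3 was lower in LPM as well (-2.44 in KO, -2.05 in WT), and Ckb was higher (3.42 and 3.26).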

How the data were processed

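The authors deposited log2 expression per probe set for 16 arrays and 30177 probe sets, and RMA is the tool that the submitters' processing notes name, without a version or the set of arrays it was run on. Such normalization gives arrays like distributions and so hides a change in RNA content per cell. Values ran from 1.04 to 13.84. Groups and replicate numbers came from the titles.

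Of the probe sets, 21789 carried 1 symbol, 1621 several and 6767 none here; 21698 of the first matched GRCm38.p6 gene entries by Entrez ID, with 0 symbols changed. The probe set with the highest mean represented a gene, and a gene entered the tests when 2 or more arrays had it above their median (11634 tested, 8304 not). Group means over all 16 arrays were fitted with limma 3.58.1 (lmFit, eBayes; R 4.3.3), with 9 residual and 6.61 prior degrees of freedom, in 11 comparisons, each Benjamini-Hochberg adjusted over all tested genes and called under 0.05. Ass1 and Sms have only probe sets of several symbols, so a second fit over 13677 single probe sets was added after their values were seen. No count of reads applies to arrays; their number limits the precision.

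The listed genes and the pathway lists were chosen with earlier results of these data known. All 10 listed genes are accounted for; of each pathway list up to 4 called genes per comparison are named by size, and the genes most alike are the 3 highest correlations for the 3 listed genes with the widest range. Of same-numbered arrays of different groups 8 of 43 pairs had residuals correlated above 0.1 (median -0.004), against 5 of 66 differently numbered pairs (median 0.004). In groups of 2 arrays the residuals mirror each other, so this does not decide whether the numbers pair the arrays. Alternatives were quantile normalization, 2 centrings, other dim filters, averaged probe sets, another variance model, array weights, a replicate block, a fit to only those arrays that are compared, and omission of each array in turn. Statements that arrays of a listed gene did not overlap between groups are descriptions, without the share over all probe sets. The fit was tested on simulated data. Figures used Python 3.11.15 and matplotlib 3.10.9.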

Additional observations from a re-analysis of the deposited data

Results flagged for a closer look

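Results listed here are those in which the effect of genotype differed between 2 settings by a test of the difference itself. The KO minus WT difference of Arg1 in IL-4c LPM minus that in naive LPM was -1.43 (limma adjusted p = 0.0131), and that in naive LPM minus that in AM was 1.58 (adjusted p = 0.00887). In the second, Arg1 in AM read 4.52 to 4.98, at the array medians, so a genotype effect towards lower levels could not show there and no difference between cell types is drawn from it. For the Ass1/Gm5424 probe sets 10363541 and 10471154 the first of these interactions was -1.53 and -1.47. Probe set 10471154 entered the tests only through IL-4c arrays, so its value is a description. The IL-4c interactions of Arg1 and of 10471154 missed the threshold without IL-4c WT replicate 2, and the cell type interaction of Arg1 missed it without AM WT replicate 1 or AM KO replicate 2. No group held enough arrays for a test of single outlying arrays.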

How the results depend on the processing

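For 7 of 11 comparisons the number of listed genes called stayed within 1.5 times of its main value under all alternatives. With arrays centred on the median of all probe sets it was 0 in place of 1 for KO against WT in IL-4c LPM (Sat1, adjusted p = 0.0504), and with only the arrays compared it was 0 in place of 1 for that comparison and for the label Bhlhe40LysM against WT. An intensity trend with robust variance gave 2 in place of 1 for the genotype by IL-4c interaction, adding Sat1 (0.72, adjusted p = 0.0252). Leaving out 1 array at a time gave 0 to 1 for KO and for the label Bhlhe40LysM against WT in IL-4c LPM, 0 to 2 for the genotype by IL-4c interaction and 0 to 1 for that with cell type. The replicate block left all 11 of these counts within that bound (1 for naive LPM, KO against WT); it ended the calls of Azin1 in the WT response to IL-4c and of Sat1 between LPM and AM in WT. The KO response of Sat1 to IL-4c had an adjusted p of 0.0594 under the first centring and 0.0605 with only the arrays compared. Under a second quantile normalization the Sms/Gm8234 probe set 10604844 was called lower in IL-4c KO than WT LPM (-0.51, adjusted p = 0.0397). No called difference of a listed gene changed sign under any alternative. The cause of these changes was not tested.

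Counts over all genes moved more. For KO against WT in IL-4c LPM they were 422, but 84 without IL-4c WT replicate 2 and 117 with only the arrays compared; for the label Bhlhe40LysM against WT 1009, 240 and 150. In naive LPM, KO against WT gave 219, with 75 without WT replicate 1 and 419 with array weights. For the IL-4c interaction they were 64, with 20 to 133 without single arrays and up to 109 with an intensity trend. For the cell type interaction they were 29, with 9 to 57 and up to 62 with only the arrays compared, and for KO against WT AM 14, with 8 to 19. For the label Bhlhe40LysM against KO they were 2, with 1 to 111 and from 0 to 8. The KO response to IL-4c gave 4342 calls and 2787 without IL-4c KO replicate 1. Centring on the median of the tested genes, added after the data were seen, moved the higher fraction of the called genes from 28.3% to 44.0% for KO against WT in naive LPM (45.6% after quantile normalization), from 58.8% to 46.5% for the KO response to IL-4c and from 31.0% to 58.3% for the cell type interaction. Arrays carry no detection calls here, so signals at the array medians (Arg1 in AM, Arg2, Nos2, naive Ass1/Gm5424, Gatm, Dohh, Aldh4a1 and Azin2, and Smox, Slc6a8, Eif5a2 and Azin2 in IL-4c WT LPM) give no bound on a fold.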
